A study of Mus musculus with 8 samples.

Results

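Forkhead (Fox) genes encode transcription factors that share the winged-helix DNA-binding domain. They were measured here in whole mouse embryos after the dams received hydroxyurea or saline. The members are all probes whose RefSeq accession belongs to a symbol made of Fox, a letter from a to s and a number: 55 of the 55681 probes on the array, for 44 of 20145 named genes. Of these 44 genes, 40 were tested because 4 or more of the 8 arrays read a probe well above background, and 32 of the 40 were read so on all 8. The 4 others, Foxb2, Foxn1, Foxj2 and Foxr2, had no probe that passed this filter and have no result: Foxb2 and Foxn1 were above background on 0 arrays, Foxj2 on 1 hydroxyurea and 2 saline arrays and Foxr2 on 1 array.

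The embryos were of CD-1 mice, an outbred stock, on gestational day 9. Their dams were injected intraperitoneally with hydroxyurea at 400 mg/kg or with saline and killed after 3 h, and 4 samples of each group were hybridised to 1-colour Agilent arrays. Hydroxyurea inhibits ribonucleotide reductase, which supplies the building blocks of DNA. The study, by its title, asked about p53 signalling in embryos damaged by the drug. The design text speaks of 4 independent experiments but not of which saline and hydroxyurea samples share one, nor of the embryos or litters behind a sample, and p-values measure the spread between these samples. RNA came from whole embryos, so fewer cells of a type and less RNA per cell cannot be told apart.

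The forkhead subfamilies, named by letters, mark and pattern different parts of the embryo at this stage. FOXA proteins open chromatin in the endoderm, the notochord and the floor plate, FOXC proteins act in somites and vessels, FOXF proteins in the lateral plate mesoderm under hedgehog signals and FOXD3 in the neural crest. FOXJ1 is the master factor of motile cilia, FOXM1 drives genes of mitosis, and FOXO proteins are kept out of the nucleus by insulin and AKT signalling and act in stress responses.

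Promoter sequences of 4 forkhead genes that the results below turn on are shown from the RefSeq table of GRCm38.p6, which held 33 promoters of 28 of the 44 genes. Each run is the 250 bases before the gene's start, 5′ to 3′ on the gene's strand, and capitals mark GC boxes (GGGCGG, bound by Sp and KLF factors) and CCAAT boxes (CCAAT, bound by NF-Y), searched on both strands. They are the called genes Foxp4, Foxi1 and Foxl2, which were lower in hydroxyurea embryos, and Foxo1. Foxo1 was not called but was higher on every hydroxyurea array than on every saline array. The called genes Foxj1, Foxf1 and Foxo4 had no promoter in this source. For Foxl2 only 1 of its 2 probes passed.
Foxp4, chr17:47924633-47924882, minus strand: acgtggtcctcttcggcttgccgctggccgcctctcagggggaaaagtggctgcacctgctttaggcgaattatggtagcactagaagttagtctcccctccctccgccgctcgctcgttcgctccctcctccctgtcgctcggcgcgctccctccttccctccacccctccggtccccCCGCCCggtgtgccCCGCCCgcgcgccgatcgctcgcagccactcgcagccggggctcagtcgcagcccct
Foxi1, chr11:34208090-34208339, minus strand: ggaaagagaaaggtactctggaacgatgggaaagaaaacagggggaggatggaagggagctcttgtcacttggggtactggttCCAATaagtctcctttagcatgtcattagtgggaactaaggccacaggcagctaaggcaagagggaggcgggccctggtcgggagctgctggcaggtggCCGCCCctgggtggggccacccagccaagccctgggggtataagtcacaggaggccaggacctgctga
Foxl2, chr9:98955357-98955606, plus strand: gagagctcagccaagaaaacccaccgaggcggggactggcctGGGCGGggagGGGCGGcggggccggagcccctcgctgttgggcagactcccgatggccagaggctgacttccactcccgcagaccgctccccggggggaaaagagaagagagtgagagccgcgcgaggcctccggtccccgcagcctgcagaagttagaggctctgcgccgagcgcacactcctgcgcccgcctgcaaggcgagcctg
Foxo1, chr3:52268087-52268336, plus strand: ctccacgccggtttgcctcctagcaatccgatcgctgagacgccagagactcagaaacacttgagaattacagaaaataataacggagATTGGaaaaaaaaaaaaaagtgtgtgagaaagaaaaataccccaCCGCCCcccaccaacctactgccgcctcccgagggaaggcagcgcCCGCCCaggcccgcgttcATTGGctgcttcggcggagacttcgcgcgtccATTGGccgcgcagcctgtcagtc

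Foxo1 held 5 matches, and the others held 2 each. A GC box was in 69.7% of the 33 forkhead promoters and in 32.7% of 32851 promoters in all, and a CCAAT box in 42.4% and 33.9%. The forkhead promoters were rich in G and C, with a median of 62.0% against 52.4% for all. In Foxp4 the share was 69.6%, in Foxl2 70.8%, in Foxi1 58.8% and in Foxo1 56.0%. TATA boxes (TATAAA) were in 3 forkhead promoters (9.09%, against 12.4% of all), the sequence TTTGAA of the cell cycle homology region in 3 (9.09% against 16.0%), the forkhead core GTAAACA in 1 (3.03% against 3.17%) and the AP-1 site TGACTCA in 1 (3.03% against 4.46%). No match in these windows was found to the E2F site TTTGGCGC (0.417% of all), the GLI core GACCACCC (0.703%) or the p53 response element (0.064%). A match is a description of letters in these windows.

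All values below are log2 signals minus the 75th percentile of their array, and a difference is the hydroxyurea mean minus the saline mean on this log2 scale, fitted with limma over all features. The array hydroxyurea 2 stood apart. Over all features it correlated as well with the saline arrays (mean r = 0.982) as with the other hydroxyurea arrays (0.981), while each of the other 3 had a higher mean r with the rest of the hydroxyurea group (0.979 to 0.984) than with saline (0.967 to 0.971). Without it 9 forkhead genes were called, 2 higher (Foxj1 and Foxj3) and 7 lower (Foxd4, Foxf1, Foxi1, Foxl2, Foxo4, Foxp1 and Foxp4), and 3739 features in all against 1429 with it. These are 22.5% of the 40 forkhead genes and 16.2% of all features without it, against 15.0% and 6.18% with it. What sets this array apart was not tested. Markers of the main embryonic tissues were above background, with all 5 each of neural tube, cardiomyocyte, erythroid, endothelium and somite. Tpbpa of trophoblast and Lyz2 of immune cells were above background on no array. Of the markers of these cell types 4 each were on the array, and only 2 each were above background on at least 4 arrays. Summed marker signals, in multiples of the array's 75th percentile, did not overlap between groups for endothelium (8.77 to 17.8 in hydroxyurea, 19.1 to 31.5 in saline), cardiomyocytes (158 to 190 and 117 to 142) and immune cells (1.35 to 3.38 and 3.78 to 6.11). Most of the endothelial sum came from 1 gene, Kdr, on every array, and 0 of the 5 endothelial markers were called. The part of these tissues in the forkhead results was not tested. Decidual markers summed to 69.4 on hydroxyurea 3, against 3.31 to 9.20 on the other arrays. Yolk sac markers summed to 150 on saline 2, against 9.88 to 53.2 on the others, and trophoblast markers to 32.7 on saline 4, against 2.08 to 6.47 on the other saline arrays and 8.81 to 35.5 on the hydroxyurea arrays. The arrays lay on 2 slides with 2 arrays of each group on each. In limma's interaction test between slide and treatment, 0 forkhead genes passed after adjustment (1 at an unadjusted p of 0.05), as did 0 of all features (218 at that unadjusted p).

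Of the 40 forkhead genes tested, 1 rose (Foxj1), 5 fell (Foxo4, Foxl2, Foxi1, Foxp4 and Foxf1) and 34 did not pass an adjusted p of 0.05. Of the 2 Foxl2 probes only 1 passed. Among all 14631 named genes tested, 3.64% rose, 2.03% fell and 5.67% were called in either direction; over all 23121 features, unnamed ones included, the share called was 6.18%. The forkhead share was 15.0%. With normexp background correction it was 7.5%, against 5.95% of all features. Without the filter on dim probes it was 2.27% of 44 genes, against 1.66% of all features. The 4 hydroxyurea and 4 saline arrays did not overlap in 8 of the 40 genes (20%, against 16% of named genes), the 6 called and Foxp1 and Foxo1. In 6 of these 8 hydroxyurea 2 was the hydroxyurea array nearest to saline. Foxo4 passed the filter through the saline arrays alone and Foxi1 and Foxf1 mainly so, and the counts only describe the genes that could be tested. With only the 32 forkhead genes above background on all 8 arrays, Foxj1, Foxl2, Foxp1 and Foxp4 were called, which is 12.5% against 7.99% of all 19430 features kept that way. Without any filter on dim probes Foxo4 kept its call (adjusted p = 0.0471) and the other 5 lost theirs (0.0597 to 0.11).

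The median difference was -0.08 over the 40 forkhead genes, 0.04 over all features and 0.10 over all named genes. Of the 40 forkhead genes 24 (60.0%) lay below 0, against 45.9% of all features and 38.5% of named genes. Median centring of the arrays shifts every gene alike: it moved the median of all features to 0.16 and that of the forkhead genes to 0.03, with 22 of 40 above 0. The forkhead median minus that of all features was -0.12 under both scalings, which a shift of every gene alike cannot change. This gap was -0.29 on slide 1 alone, 0.02 on slide 2 alone and -0.07 with normexp background correction. The difference had the same sign on both slides for 65.0% of the forkhead genes, against 77.4% of all features. Of the 34 genes that did not pass, 30 had a difference between -0.5 and 0.5, and for 27 the 95% interval lay within -1 and 1.

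**Figure D1:**
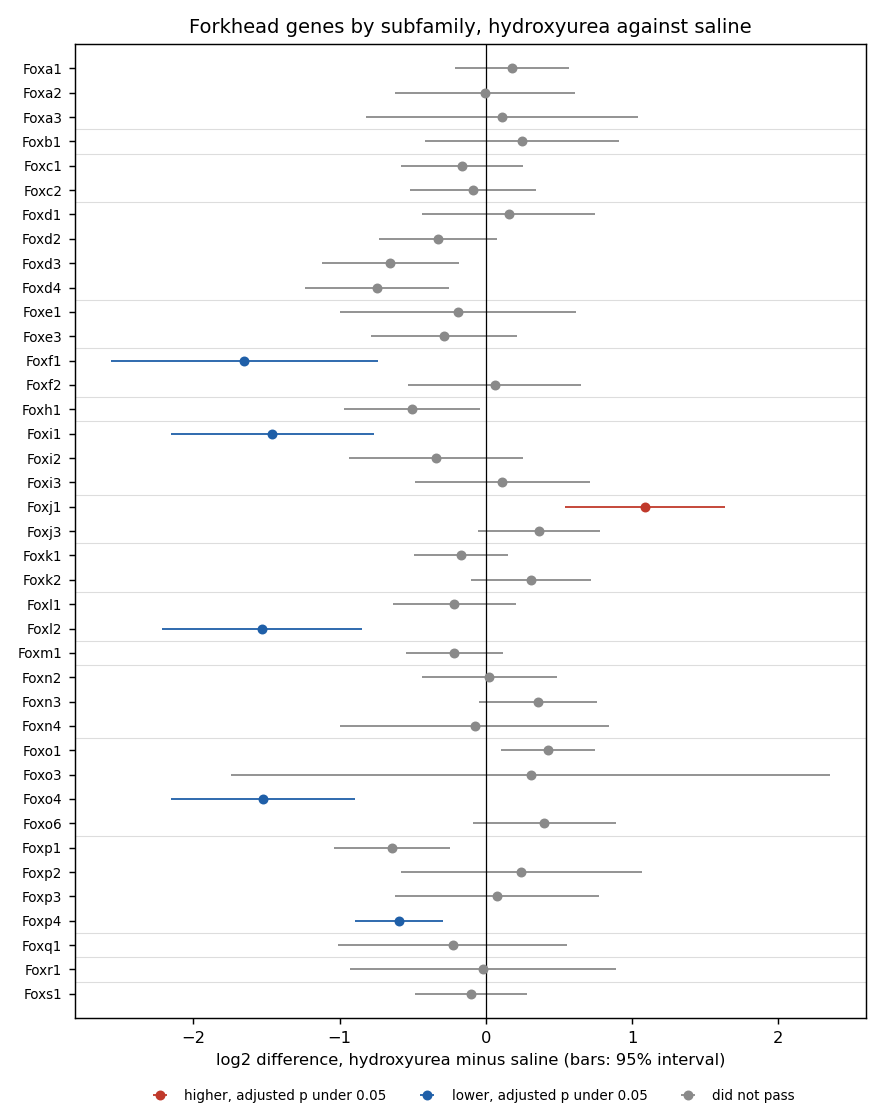
Log2 difference between hydroxyurea and saline embryos for 39 of the 40 forkhead genes tested, ordered by subfamily, with 95% intervals from the limma fit over 4 arrays per group. The 5 genes that fell (blue) and the 1 that rose (red) came from 6 different subfamilies, and most intervals include 0; for Foxo4 the hydroxyurea readings are not above background.

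FOXJ1 directs the genes of motile cilia, such as those of the embryonic node. Foxj1 (NM_008240) stood at -0.95, -1.14, -0.59 and -0.71 on the hydroxyurea arrays 1 to 4 and at -1.51, -2.56, -1.65 and -2.02 on the saline arrays 1 to 4. Every hydroxyurea array was above every saline array, and saline 2 was the lowest of all. The gene rose 2.12-fold, a difference of 1.09 ± 0.24 (SE, n = 4 per group, limma adjusted p = 0.0338), with 0.99 on slide 1 and 1.18 on slide 2. Its call held without hydroxyurea 2 (adjusted p = 0.0234) or saline 1 (0.0366) and was lost without any other array (0.0577 to 0.104). Foxj3, a broadly expressed relative, stood at 0.36 ± 0.18 (adjusted p = 0.254). Of 7 measured genes of motile cilia, 0 passed in limma, at a median of -0.18, and 1 did at an unadjusted p of 0.05 (24.1% of named genes did). That gene was Tekt1, a tektin of the ciliary axoneme, at 0.69 ± 0.19 (adjusted p = 0.0651), with a second probe at 0.61. Rfx2, a factor that acts with FOXJ1, stood at -0.79 ± 0.39 (adjusted p = 0.237).

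FOXO proteins link growth factor signals to arrest, repair and death genes. Of the 4 FOXO genes tested, Foxo4 fell and the others did not pass. Foxo4 (NM_018789) lay at -5.11, -4.67, -5.68 and -5.72 on the hydroxyurea arrays and at -4.24, -3.85, -3.31 and -3.69 on the saline arrays. It was not well above background on any hydroxyurea array and was so on all 4 saline arrays. Such a probe gives a rough bound only. Each hydroxyurea array was put at its detection limit (the dimmest probe still well above background), or at the probe's own signal where higher. Foxo4 was then 2.09-fold lower, and its second probe gave 2.30-fold. On hydroxyurea 1 and 2 the first probe read above limits of -5.61 and -4.89, yet was not well above background. The limit for a given probe can thus lie above the limit used. By the readings as they are, the difference was -0.85 on slide 1 and -2.20 on slide 2. The limma adjusted p was 0.0155, and 0.0232 over all probes for the second probe. Both came from the readings as they are, below background in hydroxyurea, and do not test these bounds. The call was lost with normexp background correction (adjusted p = 0.412) and without hydroxyurea 4 (0.0527).

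Foxo1 (NM_019739) stood at 1.82, 1.59, 1.70 and 1.67 in hydroxyurea and at 1.38, 1.02, 1.34 and 1.34 in saline. The groups did not overlap, but the difference of 0.43 ± 0.14 did not pass (adjusted p = 0.109). The other Foxo1 probe read 1.996, 1.47, 1.79 and 1.69 against 1.04, 1.08, 1.21 and 0.82, and its difference of 0.70 ± 0.16 passed over all probes (adjusted p = 0.0369). The mean of both probes passed as well (0.56, adjusted p = 0.0455). Foxo6, mainly a gene of the brain, stood at 0.40 ± 0.22 and Foxo3 at 0.31 ± 0.91, with Foxo3 above background on 5 of 8 arrays. Log ratios of the 33 pairs of genes within a subfamily were compared between the groups with an exact two-sided permutation test. With 4 against 4 arrays its smallest p is 0.0286, so a single pair could not pass after adjustment over 33 pairs. The 4 pairs at that p had an adjusted p of 0.2355, and 0 pairs passed, which says little about the pairs. Ratios to Foxo4 and to Foxi1 rest on readings near background and are not given.

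Among 18 measured regulators of FOXO proteins 0 rose, 1 fell and 17 did not pass, at a median of 0.22. The gene that fell was Stk4, the MST1 kinase gene whose product phosphorylates FOXO proteins, at -1.13 ± 0.17 (adjusted p = 0.00763), but its second probe stood at 0.24 and did not pass. Of 18 measured genes known as FOXO targets 3 rose, 1 fell and 14 did not pass, at a median of 0.15. Over all named genes tested 3.64% rose and 2.03% fell. The lists of related genes were chosen with earlier results of these data known, so their counts only describe them. Klf2, an endothelial zinc finger factor, rose by 1.20 (SE 0.18, adjusted p = 0.00646), Gadd45a, of the growth arrest response and also a p53 target, by 0.82 (SE 0.16), and Pdk4, which restrains pyruvate oxidation, by 0.93 (SE 0.20), with adjusted p of 0.0203 and 0.0316. The gene that fell was Cdkn1b, a cyclin-dependent kinase inhibitor gene named only to complete the count, at -0.66 ± 0.17 (adjusted p = 0.0495). With 1 array left out in turn Klf2 and Stk4 kept their calls in all 8 fits. Gadd45a lost its call in 6, all but those without hydroxyurea 2 or 3 (0.0523 to 0.0682), Pdk4 in 6, all but those without hydroxyurea 2 or saline 2 (0.055 to 0.104), and Cdkn1b in 7, all but that without hydroxyurea 2 (0.0871 to 0.112). Cdkn1b also lost its call with median centring (0.197) and with the slide as a block (0.0625), Pdk4 with normexp (0.47, adjusted p = 0.126), Stk4 with the mean of its probes (-0.44, adjusted p = 0.184), and Cdkn1b, Pdk4 and Gadd45a without the filter on dim probes (0.138, 0.0895 and 0.0688).

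**Figure D2:**
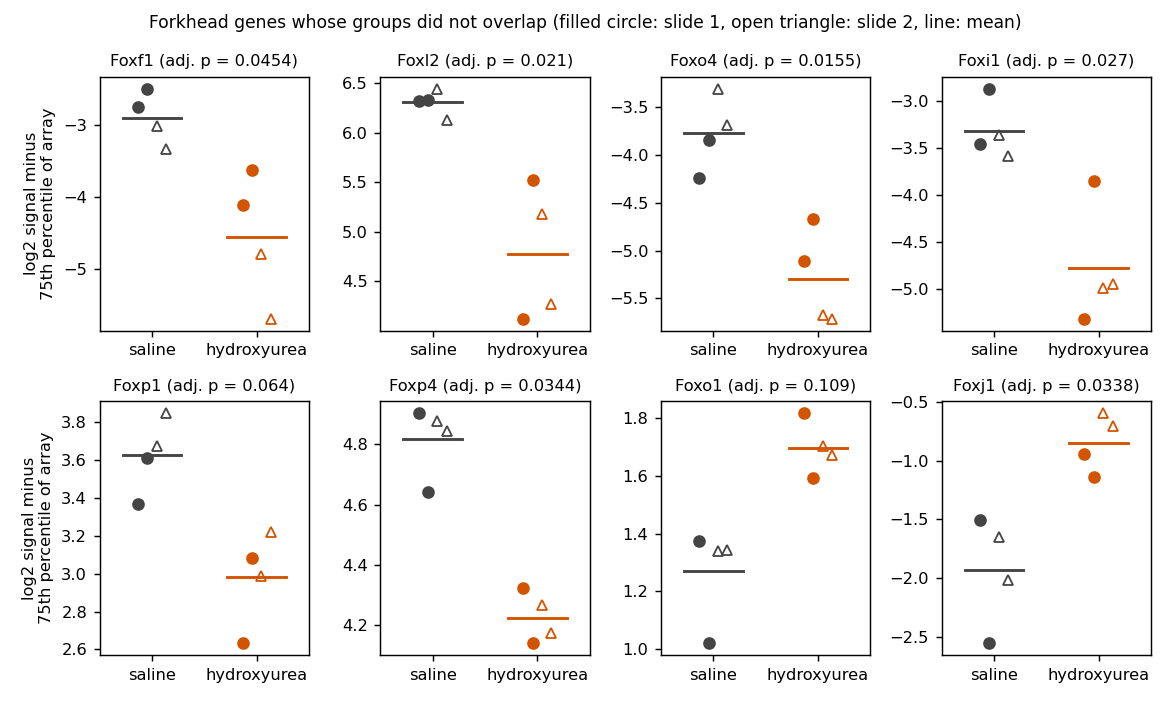
Log2 signal minus the 75th percentile of the array for the 8 forkhead genes whose 4 saline and 4 hydroxyurea arrays did not overlap, by slide, with group means as lines. Each panel has its own axis, so heights compare arrays within a gene; Foxp1 and Foxo1 did not pass an adjusted p of 0.05.

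FOXP proteins are repressors that pair with each other and act in lung, heart and brain. Foxp4 was measured by 3 probes, and all of them fell. The probe that stood for the gene read 4.32, 4.14, 4.27 and 4.17 in hydroxyurea and 4.90, 4.64, 4.88 and 4.85 in saline. Every hydroxyurea array was below every saline array, and saline 2 was the lowest of its group. The gene fell by 0.59 (SE 0.13, n = 4 per group, limma adjusted p = 0.0344), 1.51-fold, and its other probes gave -0.58 and -0.75, with adjusted p of 0.029 and 0.0354 over all probes. The probe that stood for Foxp4 was called in 1 of the 8 fits that left out an array, that without hydroxyurea 2 (adjusted p = 0.0264), against 0.057 to 0.112 in the others. The call was also lost with median centring (-0.47, adjusted p = 0.216) and with the slide as a block (0.0551).

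Foxp1 stood at 2.63, 3.08, 2.99 and 3.22 in hydroxyurea and at 3.37, 3.61, 3.68 and 3.85 in saline. These groups did not overlap, and the difference of -0.64 ± 0.18 did not pass in limma (adjusted p = 0.064). It passed without hydroxyurea 2 (0.0467) but not without any other single array (0.0831 to 0.155). Its second probe passed at -0.73 (adjusted p = 0.0414 over all probes), and its remaining probe, for another transcript, stood at -0.06. Foxp2, linked to vocal learning, stood at 0.24 ± 0.37 and at 0.43 ± 0.23 by its other probe. Foxp3, the factor of regulatory T cells, stood at 0.07 ± 0.31.

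**Figure D3:**
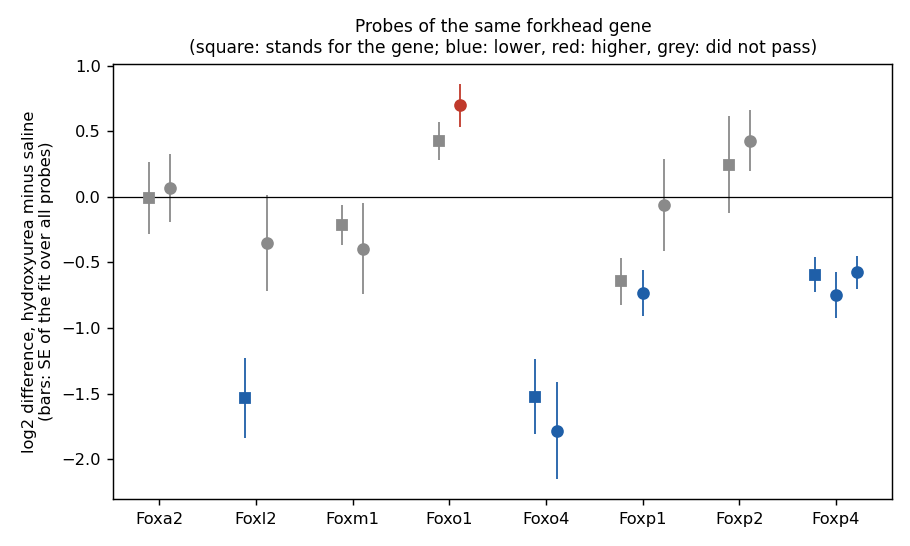
Log2 difference by probe for the 8 forkhead genes with several probes past the filter, with SE of the fit over all 30677 probes. The 3 Foxp4 probes and both Foxo4 probes fell, while only 1 of the 2 Foxl2 probes did.

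Over all 30677 probes tested as they are, 6.83% were called, and 11 of the 50 forkhead probes, 2 higher and 9 lower. These 11 belong to 8 genes, and probes of 1 gene are not independent of each other. The authors' deposited table, with 1346 probes in all, listed 5 forkhead probes of 4 genes, which were among the 11. In the authors' deposited table the difference in group means was 0.69 for Foxo1, -1.53 for Foxo4, -0.74 for Foxp1, and -0.75 and -0.60 for 2 Foxp4 probes.

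Foxl2, which encodes a factor of the ovary and the eyelid, gave unequal readings from its probes. By the probe that stood for it, Foxl2 (NM_012020) read 4.12, 5.52, 5.18 and 4.27 in hydroxyurea and 6.32, 6.33, 6.45 and 6.13 in saline. The saline arrays lay close together and the hydroxyurea arrays were spread wider, all of them lower. The difference of -1.53 ± 0.30 (2.89-fold lower, adjusted p = 0.021) was -1.50 on slide 1 and -1.56 on slide 2. The other probe, for the same accession, read -4.05, -3.77, -2.82 and -4.56 against -3.32, -3.41, -3.01 and -4.04. Those groups overlapped, and its difference of -0.35 ± 0.36 did not pass (adjusted p = 0.591). Their mean did not pass either (-0.94, adjusted p = 0.103). The levels of the 2 probes were far apart, with saline means of 6.31 and -3.44. Which transcript the brighter probe reads was not tested. With 1 array left out the call held without hydroxyurea 2 (adjusted p = 0.00678), hydroxyurea 3 (0.0262) and saline 4 (0.0454), and was lost without each of the others (0.0535 to 0.067). Foxl2os, the antisense gene beside Foxl2, had 1 probe past the filter at 0.24 (adjusted p = 0.779). Foxl1, of the gut mesenchyme, stood at -0.22 ± 0.19. The log ratio of Foxl1 to Foxl2, by its brighter probe, differed by 1.31 ± 0.30 without overlap (exact two-sided permutation p = 0.0286, the smallest that 4 against 4 arrays allow, adjusted p = 0.2355 over the 33 pairs).

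FOXF1 acts in the lateral plate and the gut mesenchyme as a target of hedgehog signals. Foxf1 (NM_010426) read -4.10, -3.62, -4.78 and -5.69 in hydroxyurea and -2.75, -2.49, -3.02 and -3.34 in saline. All hydroxyurea arrays were below all saline arrays, and the probe was well above background on 2 of 4 hydroxyurea and 4 of 4 saline arrays. The gene fell by 1.65 (SE 0.41, n = 4 per group, limma adjusted p = 0.0454), with -1.24 on slide 1 and -2.06 on slide 2. Without hydroxyurea 2 the adjusted p was 0.0152, and without any other array the call was lost (0.0663 to 0.112). With normexp the difference was -0.44 (adjusted p = 0.169). Its close relative Foxf2 stood at 0.06 ± 0.26, and the log ratio of Foxf1 to Foxf2 differed by -1.71 ± 0.65 between the groups (exact two-sided permutation p = 0.0571, adjusted p = 0.2355 over 33 pairs). The size of this ratio rests in part on Foxf1 readings that were not well above background.

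Of 15 measured genes of the lateral plate and of hedgehog signalling, 1 rose, 2 fell and 12 did not pass, at a median of 0.09. Over all named genes 3.64% rose and 2.03% fell. Ptch1, the hedgehog receptor gene and a target of the pathway, fell by 2.15 (SE 0.27, adjusted p = 0.00326), and Hand1, a factor of the heart and the lateral mesoderm, fell by 1.42 (SE 0.22, adjusted p = 0.00831). Dhh, a hedgehog ligand gene, rose by 1.12 (SE 0.18, adjusted p = 0.00858). These 3 calls held without any single array. Foxf1, Foxc2 and Foxl1 lie side by side in the genome, with Mthfsd alone between Foxf1 and Foxc2 among protein-coding genes. Foxc2 stood at -0.09 ± 0.19 and Mthfsd at 0.23 ± 0.25, so no other gene of this group passed. Foxq1, Foxf2 and Foxc1 are neighbours as well, and none of them passed (-0.22, 0.06 and -0.16).

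FOXI factors act in the otic placode, the pharyngeal arches and the ectoderm. Foxi1 (NM_023907) read -5.32, -3.86, -4.99 and -4.94 in hydroxyurea and -3.46, -2.87, -3.36 and -3.58 in saline. Hydroxyurea 2 lay just below the saline arrays and the other 3 hydroxyurea arrays well below them. The probe was well above background on 1 of 4 hydroxyurea and 4 of 4 saline arrays. The difference of -1.46 ± 0.31 passed (adjusted p = 0.027), was -1.43 on slide 1 and -1.50 on slide 2, and shrank to -0.29 with normexp (adjusted p = 0.343). The call held without hydroxyurea 2 (0.00351) or saline 4 (0.0491) and was lost without any other array (0.0602 to 0.0857). Foxi2 stood at -0.34 ± 0.27 and Foxi3 at 0.11 ± 0.27.

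**Figure D4:**
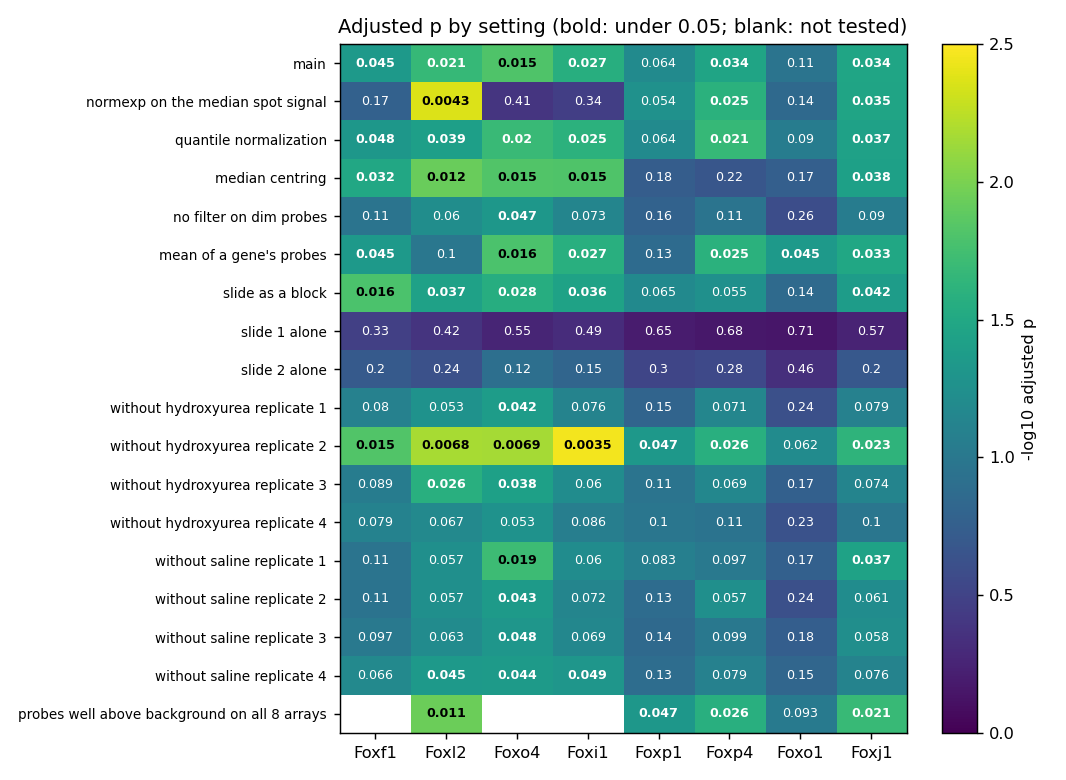
Limma adjusted p of the 8 forkhead genes whose groups did not overlap, under the main setting and each alternative, colour-coded on a -log10 scale; blank cells had no probe past that filter. Leaving out hydroxyurea 2 gave calls for 7 of the 8 genes, with 16.2% of all features called against 6.18% with it. The genes were picked for not overlapping, and this array was the hydroxyurea array nearest to saline in 6 of them. The fits within 1 slide gave no call here, and 59 (slide 1) and 3 (slide 2) over all features.

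Of the 4 FOXD genes tested 0 passed in limma, and Foxd3 and Foxd4 did at an unadjusted p of 0.05 (24.1% of named genes did). Foxd4 read -3.19, -2.61, -2.88 and -3.32 in hydroxyurea and -2.32, -1.83, -2.22 and -2.63 in saline, a difference of -0.75 ± 0.22 (adjusted p = 0.0778). Foxd3, which keeps neural crest cells multipotent, read -2.51, -2.47, -1.84 and -2.22 against -1.49, -1.98, -1.30 and -1.67, a difference of -0.65 ± 0.21 (adjusted p = 0.0958). In each case only 1 hydroxyurea array reached the saline range. Foxd4 passed in limma without hydroxyurea 2 (adjusted p = 0.0314) but not without any other single array (0.0719 to 0.213). Foxd2 stood at -0.33 ± 0.18 and Foxd1, of the forebrain and the kidney stroma, at 0.16 ± 0.26. Of 12 measured neural crest genes 0 rose, 1 fell (2.03% of named genes did) and 11 did not pass, at a median of -0.31. The gene that fell was Sox10, a factor of migrating crest, at -0.78 ± 0.15 (adjusted p = 0.0169). Its call was lost without hydroxyurea 4, saline 3 or saline 4 (0.0507 to 0.0642), with median centring (-0.66, adjusted p = 0.104) and without the filter on dim probes (0.0608). The summed neural crest markers, Foxd3 and Sox10 among them, were 4.08 to 5.63 in hydroxyurea and 5.47 to 7.03 in saline.

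For the other patterning factors the groups overlapped. The FOXA genes of endoderm and floor plate stood at 0.18 ± 0.17 (Foxa1), -0.01 ± 0.27 (Foxa2) and 0.11 ± 0.41 (Foxa3). The intervals of the first pair, -0.21 to 0.57 and -0.62 to 0.61, lie below a 2-fold change. Of 14 measured endoderm and floor plate genes 0 passed in limma, at a median of -0.11, and 3 did at an unadjusted p of 0.05 (24.1% of named genes did), among them Gata4 (-0.56, adjusted p = 0.107) and Hhex (0.45, adjusted p = 0.131). Foxc1 and Foxc2, of somites and vessels, stood at -0.16 ± 0.19 and -0.09 ± 0.19. Of 17 measured somite and vascular genes 0 passed in limma, at a median of 0.20, and 5 did at an unadjusted p of 0.05 (24.1% of named genes did). Mesp2, of the forming somite, stood at 0.84 ± 0.25 (adjusted p = 0.0837). Kdr, the endothelial VEGF receptor gene, stood at -1.16 ± 0.35 (adjusted p = 0.0869) without overlap, and its second probe at -0.38. Kdr is itself 1 of the endothelial markers and made up most of their sum, which was lower in every hydroxyurea array.

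Among 11 measured forebrain genes 0 rose, 1 fell (2.03% of named genes did) and 10 did not pass, at a median of -0.09. Six3, of the anterior forebrain and the eye, fell by 1.46 (SE 0.21, adjusted p = 0.00571) and kept its call without any single array. Foxb1, of the neural tube, stood at 0.24 ± 0.30, Foxe1 of the thyroid bud at -0.19 ± 0.36, Foxe3 of the lens at -0.28 ± 0.22 and Foxn4, of retinal and spinal progenitors, at -0.08 ± 0.41. Foxh1, the partner of SMAD proteins in Nodal signalling, stood at -0.50 ± 0.21 (adjusted p = 0.172), and of 14 measured Nodal pathway genes 0 passed in limma, at a median of 0.12, and 0 did at an unadjusted p of 0.05 (24.1% of named genes did). Gsc stood at -0.76 ± 0.53 and Lefty2 at 0.29 ± 0.22.

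FOXM1 switches on genes of G2 and mitosis. Foxm1 (NM_008021) stood at -0.22 ± 0.15 (interval -0.55 to 0.12, adjusted p = 0.399) and at -0.39 ± 0.35 by its other probe. Of 19 measured FOXM1 targets and partners 0 rose, 4 fell (2.03% of named genes did) and 15 did not pass, at a median of -0.37. Cdc20, whose product starts anaphase, fell by 0.86 (SE 0.18, adjusted p = 0.0241), Cenpf, of the kinetochore, fell by 1.04 (SE 0.23, adjusted p = 0.0305) and Cdc25b, a phosphatase that starts mitosis, fell by 0.62 (SE 0.15, adjusted p = 0.0423). The remaining gene, Aurka, a mitotic kinase gene named only to complete the count, fell by 0.96 (SE 0.23, adjusted p = 0.0426). With 1 of the 8 arrays left out in turn, Cdc25b lost its call in 7 fits (adjusted p 0.0744 to 0.112), all but that without hydroxyurea 2. Aurka lost it in 6, all but those without hydroxyurea 2 or 3 (0.0622 to 0.131), Cenpf in 5, without hydroxyurea 1 or any saline array (0.0577 to 0.0831), and Cdc20 in 5, without hydroxyurea 4 or any saline array (0.0528 to 0.0777). All 4 calls were lost with median centring (adjusted p 0.073 to 0.188) and without the filter on dim probes (0.0755 to 0.124), those of Cdc25b (0.0516) and Aurka (0.0645) with the slide as a block, and that of Cenpf with quantile normalization (0.0512) and with normexp (-0.37, adjusted p = 0.18). Foxk1 and Foxk2, which restrain autophagy, stood at -0.17 ± 0.14 and 0.31 ± 0.18, Foxn2 and Foxn3 at 0.02 ± 0.20 and 0.36 ± 0.18, and Foxq1, Foxr1 and Foxs1 at -0.22 ± 0.35, -0.02 ± 0.41 and -0.10 ± 0.17. Of 14 measured cofactors 0 passed in limma, at a median of -0.07, and 3 did at an unadjusted p of 0.05 (24.1% of named genes did). The corepressor genes Tle5 and Tle1 stood at -1.52 ± 0.41 (adjusted p = 0.0613) and -0.62 ± 0.21 (adjusted p = 0.11), and the second probe of Tle5 at -0.17.

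**Figure D5:**
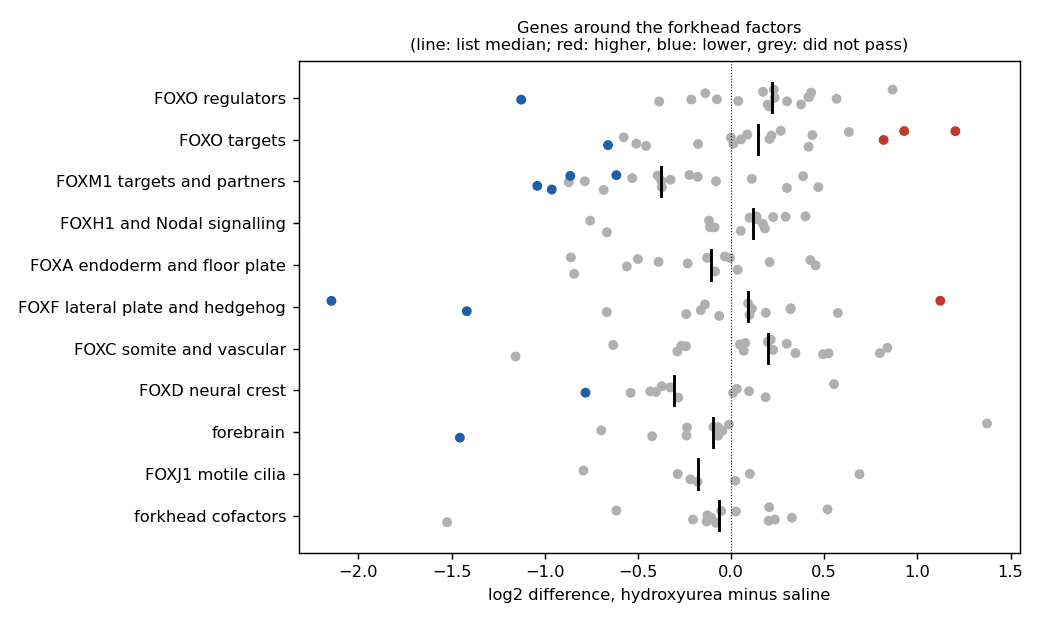
Log2 differences of the genes measured in each of 11 lists around the forkhead factors, with list medians as lines. Of 159 genes 4 rose and 10 fell, while 3.64% of all named genes rose and 2.03% fell. The FOXM1 list has the lowest median (-0.37).

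Forkhead genes include short genes without introns. Split at the median locus length of the tested members, 4628.5 bases, the 20 shorter forkhead genes had a median difference of -0.22, with 3 above 0, and the 20 longer ones a median of 0.09, with 13 above 0. All named genes split at the same length had medians of -0.03 (1991 shorter genes, 46.5% above 0) and 0.12 (12640 longer genes, 63.8% above 0). Of the 6 forkhead genes called, 3 of those that fell were among the shorter, and Foxj1 and 2 of those that fell among the longer. Of the 1991 shorter named genes 54 rose and 76 fell, and of the 12640 longer ones 478 rose and 221 fell.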

How the data were processed

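Total RNA of 4 hydroxyurea and 4 saline samples was hybridised to 1-colour Agilent arrays. Spot intensities were deposited as Agilent Feature Extraction 11.5.1.1 output, per the submitters' processing notes, with background subtracted in the processed signal used here. Each array held 3671 control spots and 59305 other spots. The control spots were left out, as were 151 to 315 outliers among the other spots, of which 0 were saturated. Between 48.67% and 62.27% of probes were well above background, and the 75th percentile signal was 249.4 to 516.3. The number of arrays limits the precision.

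Signals were taken as log2 minus each array's 75th percentile. Probes well above background on at least 4 of 8 arrays and measured on all 8 were kept (30677), the brightest probe standing for a gene (23121 features, 14631 of them named genes). Accessions named 26582 probes through a RefSeq table of GRCm38.p6, and 29099 probes stayed unnamed. Groups were compared with limma 3.58.1 in R 4.3.3 (lmFit, eBayes, Benjamini-Hochberg over all features), with 95% intervals, and the steps were tested on simulated data. Pairs of genes were compared with an exact permutation test.

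The normalization of the authors' deposited table and the test behind its choice of probes were not stated in the labels or the file. The authors' deposited table holds log2 values centred per probe for 1346 probes. Its columns correlated with the scanner values at 0.9764 to 0.9929 and had medians of -0.5066 to 0.4072.

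The forkhead genes and the 11 lists of related genes were chosen with earlier results of these data known. The result of 1 tested forkhead gene is not reported here and is counted only in the totals. By the naming rule, forkhead genes that were called or whose groups did not overlap have a value on every array. In each list the 3 called genes with the lowest p are named, or the 2 with the lowest p where none was called. Alternatives were normexp, quantile and median scaling, other filters, the mean of a gene's probes, all probes, the slide as a block, each slide alone and leaving out each array. Normexp used the median spot signal, with an offset of 50, a form chosen after seeing the data.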

Additional observations from a re-analysis of the deposited data

Results flagged for a closer look

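In 10 of 128 groups of 4 arrays, 1 array lay far from the other 3 by Dixon's criterion, which chance alone meets in about 1 in 20 groups. Values are log2 signals minus the array's 75th percentile. Among forkhead genes, saline 4 stood at 0.90 for Foxa1 (the other saline arrays at 1.23 to 1.30), at -1.36 for Foxp2 (-2.99 to -2.87) and at -5.64 for Foxr1 (-3.93 to -3.65). Foxo1 was at 1.02 on saline 2 (1.34 to 1.38 on the others). Foxj3 was at 3.09 on hydroxyurea 2 against 3.62 to 3.72 on the other hydroxyurea arrays. Among related genes, Tekt1 was at 0.63 on hydroxyurea 2 (1.11 to 1.16 on the others) and Six3 at -0.81 on saline 2 (-0.24 to -0.18). Cdkn1b was at 2.43 on saline 4 (1.96 to 2.03). Sox10 was at 0.43 on hydroxyurea 1 (0.03 to 0.10) and at 1.09 on saline 4 (0.88 to 0.90).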

How the results depend on the processing

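Of the 40 forkhead genes 1 was called higher and 5 lower, with 1429 features called in all and 14 genes of the related lists. Without the filter on dim probes these became 0 higher, 1 lower, 615 features and 6 list genes. On slide 1 alone they were 0 and 0 with 59 features and 0 list genes, and on slide 2 alone 0 and 0 with 3 features and 0 list genes. Normexp left 2 lower and the filter on all 8 arrays 3 lower. The mean of a gene's probes gave 2 higher, and all probes tested as they are 2 higher and 9 lower. Median centring left 8 list genes. With 1 array left out, forkhead genes higher ranged from 0 to 2, lower from 0 to 7, features called from 524 to 3739 and list genes from 6 to 31. The lowest forkhead counts came without hydroxyurea 4 and the highest without hydroxyurea 2. None of the called forkhead or named list genes changed sign under the alternatives run on them; all probes were tested apart, where the second probe of Stk4 stood at 0.24 and did not pass. The cause of each lost call was not tested. Of all calls 44.9% were higher, 37.1% over all probes, 51.3% with quantile normalization, 52% with the filter on all 8 arrays and 52.8% without hydroxyurea 2. No paired analysis was possible because the labels give no number that pairs samples. Probes near background, such as those of Foxo4, Foxi1 and Foxf1, limit what these arrays can measure.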
